A study of Mus musculus with 3 samples.

Results

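The interleukin genes were taken as all genes whose symbol begins with Il followed by a digit. There were 77 such genes among the 17349 named genes of the arrays, represented by 85 of 35226 probes. By role, 36 were ligands, 34 were receptor chains, 6 were antagonists, decoys or binding proteins and 1, Il4i1, was an enzyme that carries the symbol without being a cytokine. The rule used no measured value. Genes of the interleukin system with other symbols are outside the set, and 17 of 20 on a fixed list of them had a named probe.

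RNA came from the sinonasal mucosa of C57BL/6 mice aged 6 to 8 weeks. Control_WT denotes wild-type mice without disease, ECRS_WT wild-type mice with eosinophilic chronic rhinosinusitis of the allergic kind, and ECRS_KO mice with the CC10 gene knocked out and the same disease. A knockout group without disease was not analysed here, so the genotype comparison holds only within the disease. Each group was 1 pool of RNA from 5 mice on 1 Illumina bead array, 3 arrays and 15 mice in all, so no difference has a replicate error, a test or a p-value.

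Interleukins are secreted proteins through which immune, epithelial and stromal cells signal to each other, each by way of a receptor assembled from chains that several cytokines can share. In allergic airway disease the type 2 interleukins IL-4, IL-5 and IL-13 drive IgE production, eosinophil recruitment and mucus, and the epithelial alarmins IL-25 and IL-33 act upstream of them. Members of the IL-1 family, such as IL-1β and IL-18, are made as precursors that are cut to their active form, while secreted antagonists and decoy receptors limit their action.

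The targeted gene, Scgb1a1, which encodes CC10, went against the labels. Control_WT gave a signal of 3.32 that was not detected, ECRS_WT one of 493 and ECRS_KO one of 597. On the knockout array it was therefore as bright as on the diseased wild-type array, and whether its probe lies in the deleted part was not tested. The labels are used below as given, and every direction rests on them although Scgb1a1 went against them. The arrays also differed in brightness, with mean signals of 295, 373 and 465 and with 11428, 11992 and 12508 probes detected on Control_WT, ECRS_WT and ECRS_KO in that order. Precision is limited by having 1 array per group. A probe was counted as detected at a detection p under 0.01, and a normalized level is the log2 of the background-corrected, quantile-normalized signal.

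Most interleukin genes were not detected in the mucosa. On at least 1 array 24 of the 77 genes (31.2%) were detected, against 9267 of 17349 (53.4%) of all named genes, and 19 were detected on all 3 arrays. The number detected was almost the same in every group, at 22 in Control_WT, 21 in ECRS_WT and 21 in ECRS_KO. These were 28.6%, 27.3% and 27.3% of the interleukin genes, beside 45.5%, 47.4% and 48.8% of all named genes. Receptor chains were detected more often than ligands, with 17 of 34 chains and 6 of 36 ligands on at least 1 array. None of the 6 antagonists, decoys and binding proteins was detected, among them Il1rn, the IL-1 receptor antagonist, Il18bp, which binds IL-18, and Il13ra2, the IL-13 decoy receptor. In the IL-17 family all 5 receptor chains were detected on at least 1 array, against 1 of 6 ligands.

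**Figure D1:**
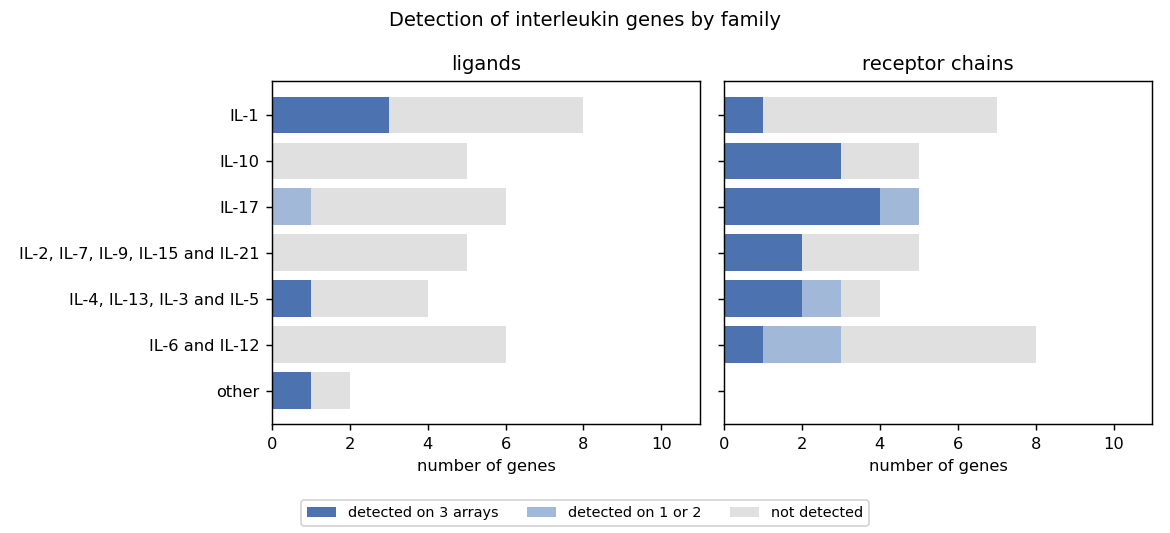
Number of ligand genes (left) and receptor chain genes (right) in each interleukin family, with dark bars for genes detected on 3 arrays, light bars for 1 or 2 arrays and grey bars for none. Ligands were mostly undetected, at 30 of 36, while 17 of 34 receptor chains were detected; the antagonists and the enzyme are not drawn.

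Among the cytokines of type 2 and related inflammation, Il13 was detected on all 3 arrays, whereas Il4, Il5, Il9, Il25, Il6, Il10 and Il17a were not detected on any. Il4 had signals of 13.0, 7.63 and 2.35 on Control_WT, ECRS_WT and ECRS_KO, the order used for all sets of 3 signals and levels below. Il5, the eosinophil growth and survival factor, had signals of -1.37, -3.85 and -14.8, so its probe stood at background in the diseased groups as in the controls. Il25 likewise lay at background, with -0.547, -9.42 and -9.57. A signal at background bounds what the probe can see in pooled whole mucosa and does not show that the gene was silent.

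Most pairs of interleukin genes that are chromosomal neighbours were alike, with both genes undetected, and Il17re and Il17rc were both detected on at least 1 array. The remaining pairs differed in detection. Il1b was detected on 3 arrays and its neighbour Il1a on none, and the same held for Il13 and Il4, for Il18r1 and Il18rap and for Il15ra and Il2ra. Some partners of detected genes, named after their values were seen, were undetected too. Il4ra, which pairs with Il13ra1 to bind IL-13, had signals of 3.13, 1.93 and 5.01. Il1r1, the signalling receptor of IL-1β, had signals of 6.85, 24.1 and 16.9. Neither was detected on any array, in contrast to Il13ra1 and Il1b, which were detected on all 3.

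Detection calls and signals did not always go together. Of the 53 undetected genes, 46 had signals of 40 or less on every array, the highest being 24.1. The other 7, singled out after values were seen, passed a signal of 40 without being detected, namely Il15, Il18bp, Il1rl2, Il20ra, Il6st, Il7 and Il7r. Il6st, which encodes gp130, the shared signalling chain of the IL-6 family, had signals of 150, 215 and 180. Its lack of a detection call is thus no sign of a dim probe, and the same was seen in other genes, with 153, 178 and 222 probes above a signal of 1000 that were not detected.

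Of the detected ligands, Il33 encodes the nuclear alarmin of epithelial and stromal cells. Its signals were 1886, 2402 and 4201, and its normalized levels 11.30, 11.30 and 11.72. The controls and the diseased wild type thus stood at the same level, and the array labelled ECRS_KO was 1.34-fold higher, a log2 difference of 0.42. This was 1 of only 2 measured interleukin genes above 0 in that comparison. The RefSeq table of build GRCm38.p6 gives the gene a pair of starts, whose windows of 250 bases before to 50 bases after each start are shown because they are the promoters of this alarmin. Capitals mark the letters TATAAA, the TATA box, and in the first window also a STAT-type motif, TTC and GAA with 4 bases between them, read on either strand. The windows are at chr19:29924863-29925162 and chr19:29945540-29945839, both on the plus strand.
Il33 start 1: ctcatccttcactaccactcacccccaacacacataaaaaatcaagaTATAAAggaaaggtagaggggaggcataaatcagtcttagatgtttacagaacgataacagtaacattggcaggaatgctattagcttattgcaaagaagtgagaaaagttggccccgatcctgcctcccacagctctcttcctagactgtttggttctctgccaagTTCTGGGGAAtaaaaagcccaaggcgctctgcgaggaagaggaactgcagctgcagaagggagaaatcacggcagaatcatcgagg
Il33 start 2: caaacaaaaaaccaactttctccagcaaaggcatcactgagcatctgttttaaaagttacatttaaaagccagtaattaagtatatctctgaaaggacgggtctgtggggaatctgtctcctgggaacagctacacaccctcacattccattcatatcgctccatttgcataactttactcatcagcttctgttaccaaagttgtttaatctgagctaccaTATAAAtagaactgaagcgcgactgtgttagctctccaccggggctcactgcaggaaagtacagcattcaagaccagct
The first window had TATAAA at 203 bases before the start and TTCTGGGGAA at 36 bases before it, and the second had TATAAA at 29 bases before the start.

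Il1b encodes IL-1β, the inflammatory cytokine of myeloid cells that caspase-1 cuts to its active form. Its signals were 452, 726 and 379, and its normalized levels 9.41, 9.58 and 8.20. The array labelled ECRS_KO was the lowest of the 3 both in signal and in level. Against ECRS_WT it was 2.60-fold lower, a log2 difference of -1.38, while ECRS_WT and Control_WT differed by 0.17. The promoter window, at chr2:129371090-129371389 on the minus strand in GRCm38.p6 as given by RefSeq, is shown because Il1b had the largest difference of any detected ligand. Capitals mark TATAAA, at 31 bases before the start.
Il1b: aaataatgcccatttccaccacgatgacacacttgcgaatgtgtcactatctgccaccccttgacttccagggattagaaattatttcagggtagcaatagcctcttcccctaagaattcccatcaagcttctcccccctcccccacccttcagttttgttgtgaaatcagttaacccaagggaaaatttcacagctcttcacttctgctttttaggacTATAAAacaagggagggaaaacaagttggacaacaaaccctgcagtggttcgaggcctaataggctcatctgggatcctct

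Il18, the other caspase-1 substrate of the IL-1 family detected here, had signals of 41.9, 81.4 and 122 and levels of 6.53, 6.68 and 6.66. Its normalized levels on all 3 arrays lay close together while its signals rose, so that closeness rests on the normalization. Under median scaling its differences were 0.44 (ECRS_WT minus Control_WT) and 0.25 (ECRS_KO minus ECRS_WT). As reported, the difference between the diseased arrays was -0.012, beside the lower Il1b. Il13, the type 2 effector cytokine that acts on epithelium and goblet cells, had signals of 49.8, 79.8 and 119 and levels of 6.73, 6.65 and 6.64. Its normalized levels were thus close across controls, diseased wild type and knockout, with log2 differences of -0.079 and -0.016. Its signals rose in that order, and under median scaling the differences were 0.23 and 0.25, so this too rests on the normalization. Its window, at chr11:53634653-53634952 on the minus strand, is shown as that of the only type 2 effector cytokine among Il4, Il5 and Il13 that was detected. Capitals mark TATAAA on the given strand at 29 bases before the start and, overlapping it, TTTATA, the same motif on the other strand, at 31 bases.
Il13: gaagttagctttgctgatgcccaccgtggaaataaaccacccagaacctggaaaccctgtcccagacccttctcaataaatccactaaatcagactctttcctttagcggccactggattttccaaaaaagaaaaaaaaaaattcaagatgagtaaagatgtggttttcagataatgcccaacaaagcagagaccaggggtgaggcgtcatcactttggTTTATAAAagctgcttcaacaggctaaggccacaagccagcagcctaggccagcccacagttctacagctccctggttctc

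Il34, a ligand of the macrophage growth factor receptor CSF1R, had signals of 26.8, 81.5 and 99.7 and levels of 5.98, 6.68 and 6.43. It was lowest in the controls and 1.62-fold higher on the array labelled ECRS_WT, the largest positive difference of any interleukin gene between these arrays at 0.70, still under 2-fold. When limma inferred the background itself, this difference was 0.060. Il17d, a member of the IL-17 family, was detected only on the array labelled ECRS_KO, with signals of 5.41, 9.10 and 64.5. It was there at least 1.91-fold higher than on ECRS_WT, a log2 difference of 0.93. That bound holds only for the background used: the difference was 0.050 when limma inferred the background, 0.33 with the authors' normalized values and 0.53 at an offset of 50.

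**Figure D2:**
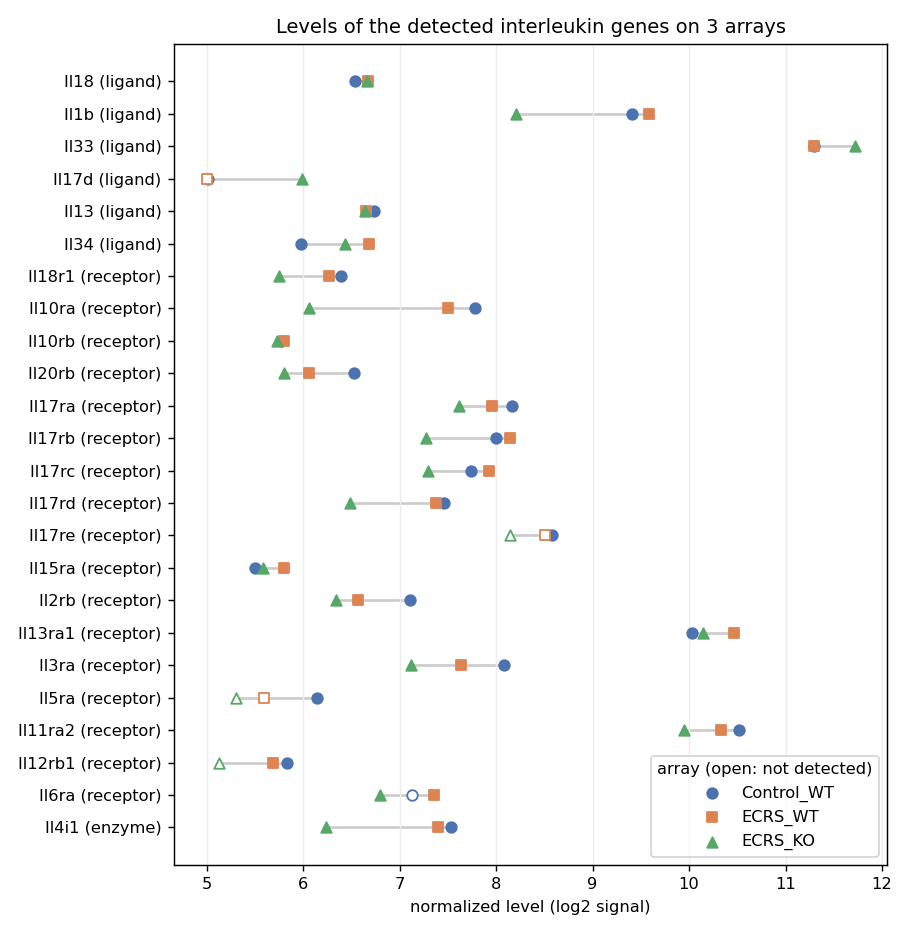
Normalized level (log2 signal) of the 24 detected interleukin genes on the arrays labelled Control_WT (circles), ECRS_WT (squares) and ECRS_KO (triangles), with open symbols where the probe was not detected. Il1b and Il10ra show a triangle well to the left of the other symbols, and Il33 and Il17d a triangle to the right.

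Among receptor chains, Il13ra1 binds IL-13 and forms the type II IL-4 receptor of epithelial cells. It had signals of 735, 1360 and 1462 and levels of 10.03, 10.47 and 10.15. The highest level was on the array labelled ECRS_WT, 1.35-fold above the controls (0.44), and the array labelled ECRS_KO was 1.25-fold below ECRS_WT (-0.32). Neither difference reached 2-fold. The signal of Il13ra1 was higher on the array labelled ECRS_KO than on ECRS_WT, so the direction between these arrays rests on the normalization.

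Il10ra, the ligand-binding chain of the IL-10 receptor on blood-derived cells, had signals of 126, 160 and 69.8 and levels of 7.78, 7.50 and 6.06. The array labelled ECRS_KO was the lowest and stood 2.71-fold below ECRS_WT, at -1.44 the largest difference of any interleukin gene. Il10rb, the widely expressed second chain of that receptor, had signals of 21.8, 36.9 and 48.7 and levels of 5.77, 5.80 and 5.72. The second chain therefore lay within 0.1 on the 3 arrays while the first was lower in the knockout. Il20rb, a chain of the receptors for IL-19, IL-20 and IL-24, had signals of 41.9, 47.1 and 52.7 and levels of 6.53, 6.06 and 5.80. Its signal was lowest and its normalized level highest in the controls, so that order rests on the normalization.

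The IL-17 receptor chains differed between the diseased arrays by steps of unequal size. Il17rb, which binds IL-25, had signals of 151, 261 and 195 and levels of 7.99, 8.15 and 7.27. Il17rc, which pairs with Il17ra for IL-17A and IL-17F, had signals of 121, 220 and 200 and levels of 7.74, 7.92 and 7.30. Both were lowest on the array labelled ECRS_KO, with log2 differences of -0.88 and -0.62 against ECRS_WT. Il17ra, the shared chain, had signals of 173, 226 and 251 and levels of 8.16, 7.95 and 7.62. Its step between the diseased arrays was smaller, and its signals ran in the opposite order to its levels. Il17re, the chain for IL-17C, was detected on Control_WT alone, with signals of 239, 338 and 362.

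Il17rd, a family member best known as an inhibitor of fibroblast growth factor signalling, gave different answers from its probes. The probe used had signals of 94.8, 144 and 105 and levels of 7.46, 7.38 and 6.49, a difference of -0.89 between the diseased arrays. Its other probe had signals of 13.1, 23.1 and 43.8, was detected only on the array labelled ECRS_KO and differed by 0.24. The mean over both probes was -0.32, so the direction of Il17rd depended on the probe. For Il15ra, which presents IL-15 to neighbouring cells, the probe used had signals of 15.9, 36.9 and 40.9, and the differences between the diseased arrays were -0.22, -0.096 and -0.27 over its 3 probes.

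Il3ra, Il6ra, Il18r1 and Il2rb each had their lowest level on the array labelled ECRS_KO without reaching 2-fold against ECRS_WT. Il3ra, the IL-3 binding chain of basophils and other myeloid cells, had signals of 162, 176 and 173 and levels of 8.08, 7.64 and 7.11. Il6ra, the IL-6 binding chain, had signals of 70.8, 141 and 136 and was not detected on Control_WT. Il18r1, which binds IL-18, had signals of 37.5, 57.0 and 50.2 and levels of 6.39, 6.27 and 5.75. Il2rb, shared by the receptors for IL-2 and IL-15, had signals of 69.1, 73.8 and 92.1 and levels of 7.10, 6.56 and 6.34. For all but Il6ra of these 4 the controls had the highest level. The signals of all 4 were lowest in the controls, and that of Il2rb was highest on the array labelled ECRS_KO. The place of the controls in the order of levels, and the whole order for Il2rb, thus rest on the normalization.

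Il12rb1, shared by the IL-12 and IL-23 receptors, was dim, with signals of 23.3, 32.6 and 19.7, and was not detected on the array labelled ECRS_KO. Il5ra, the IL-5 binding chain of eosinophils, had signals of 30.5, 29.4 and 28.0 and was detected only on Control_WT. The eosinophil receptor chain was thus no brighter in the diseased groups than in the controls. Il11ra2 had signals of 1058, 1238 and 1288, which are uncertain because the gene has a near-identical copy in Il11ra1.

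Il4i1 encodes an amino acid oxidase secreted by antigen-presenting cells. Its signals were 101, 147 and 83.0, and its levels 7.53, 7.40 and 6.23. It was lowest on the array labelled ECRS_KO, 2.25-fold below ECRS_WT at -1.17. Its RefSeq promoter window, at chr7:44836038-44836337 on the plus strand, is shown beside that of Il1b because both genes were at least 2-fold lower on the same array. None of the 5 motifs searched was found in it, so it has no capitals.
Il4i1: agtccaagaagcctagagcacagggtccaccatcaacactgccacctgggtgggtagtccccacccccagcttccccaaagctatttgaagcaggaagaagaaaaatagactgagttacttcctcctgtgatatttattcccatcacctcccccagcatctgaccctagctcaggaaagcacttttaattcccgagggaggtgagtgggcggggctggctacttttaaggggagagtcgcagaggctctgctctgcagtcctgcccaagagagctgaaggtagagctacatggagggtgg

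Beyond these windows, 60 of the 77 genes matched the RefSeq promoter table, with 73 windows. Motifs were searched on both strands as plain letters. TATAAA was in 14 of the 73 windows (19.2%) and in 13.6% of all 32851 windows. The STAT-type letters TTC and GAA with 4 bases between them were in 17 windows (23.3%) against 6.95% of all, and with 3 bases between them in 10 (13.7%) against 8.30%. TGANTCA, the AP-1 motif, was in 14 (19.2%) against 7.81%, and a kappaB motif, GGGA and TTTCC with 1 base between, in 2 (2.74%) against 0.411%. These are counts of letters, and a match is not a binding site or a cause of any level. Windows of alternative starts of the same gene can share bases.

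In the comparison of disease with control in wild-type mice, no interleukin gene reached 2-fold in either direction. A gene counted as measured if 1 of the arrays compared detected its probe, and as called at 2-fold or more when detected on the brighter one. Of 23 measured interleukin genes 0 were called higher and 0 lower, where 3.74% of all 8771 measured genes were called higher and 1.43% lower. A count of 0 among 23 genes stands beside background shares that are themselves small. The median log2 difference was -0.079, beside -0.091 for all measured genes, and 14 of 23 differences lay below 0, as did 58.6% of all. The range ran from -0.55 for Il5ra, where the ECRS_WT side was undetected, to 0.70 for Il34.

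By role, the 5 measured ligands had a median of 0.14 in this comparison and the 17 receptor chains one of -0.12. The largest negative differences after Il5ra were those of Il2rb (-0.54), Il20rb (-0.47) and Il3ra (-0.44), and the largest positive ones after Il34 those of Il13ra1 (0.44) and Il15ra (0.30). All of them lay inside the central 95% of all measured genes, from -0.89 to 1.20. Where a gene had several probes, their differences had a pooled SD of 0.50 (370 genes), a spread between probes and not between mice. Only Il34, Il2rb and Il5ra exceeded it. The deposited signals before normalization were lower on the array labelled ECRS_WT for 1 of 23 interleukin genes (Il5ra) and for 16.2% of all genes. The other negative signs, among them those of Il2rb, Il20rb and Il3ra, run against the signals and rest on the normalization. When limma inferred the background itself, the differences of Il2rb, Il20rb and Il3ra were -0.067, -0.040 and -0.12.

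Between genotypes within the disease, 3 interleukin genes were lower and none higher by 2-fold. Il10ra (-1.44), Il1b (-1.38) and Il4i1 (-1.17) made up the 3 of 22 measured genes called lower on the array labelled ECRS_KO, and 0 were called higher, where 2.36% of all 8917 measured genes were called lower and 4.72% higher. The share of interleukin genes called lower was thus above that of all genes, on 3 genes. Leaving out Il4i1, which is no cytokine or receptor, 2 of 21 were lower. Il10ra, Il1b and Il4i1 were the interleukin genes outside the central 95% of all genes, from -0.98 to 1.36. This comparison shares the array labelled ECRS_WT with the one above, and a value of that array enters both with opposite sign.

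The shift was not limited to the genes past 2-fold. Of the 22 measured interleukin genes 20 lay below 0, where 54.5% of all measured genes did, and the median was -0.36 beside -0.042 for all. A median of this size was not particular to interleukin genes. The lists of endothelial and fibroblast markers had medians of -0.35 and -0.31, while those of neutrophil and olfactory neuron markers lay above 0, at 0.16 and 1.85. All 15 measured receptor chains lay below 0, from -1.44 for Il10ra to -0.079 for Il10rb, with a median of -0.52. That all 15 did so rests on the normalization. In the deposited signals 8 of the 15 were lower on the array labelled ECRS_KO and 7 higher. Under median scaling Il10rb (0.056) and Il2rb (0.023) lay above 0. Of the 6 ligands 4 lay below 0 as reported, with a median of -0.014. Differences below -0.5 were found for 10 of 22 interleukin genes and for 12.0% of all genes. Among the 19 interleukin genes detected on all 3 arrays, where no gene had passed through 1 array only, 18 lay below 0, beside 56.3% of the genes so detected.

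The median lay below 0 in each of the 7 groups by family, which held 2 to 5 measured genes, as did the median of all genes (-0.042). The group of other members held only Il34 and the enzyme Il4i1 here and is no family. The 4 IL-17 receptor chains measured here ran from -0.89 to -0.34, and the 3 genes of the IL-6 and IL-12 family from -0.56 to -0.38. The 3 measured genes of the IL-10 family ran from -1.44 to -0.079. The same pooled SD between probes was 0.29 here (491 genes), and 13 of the 22 interleukin genes lay further than that below 0. In the deposited signals, without normalization, 10 of the 22 were lower on the array labelled ECRS_KO, where 16.4% of all genes were.

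**Figure D3:**
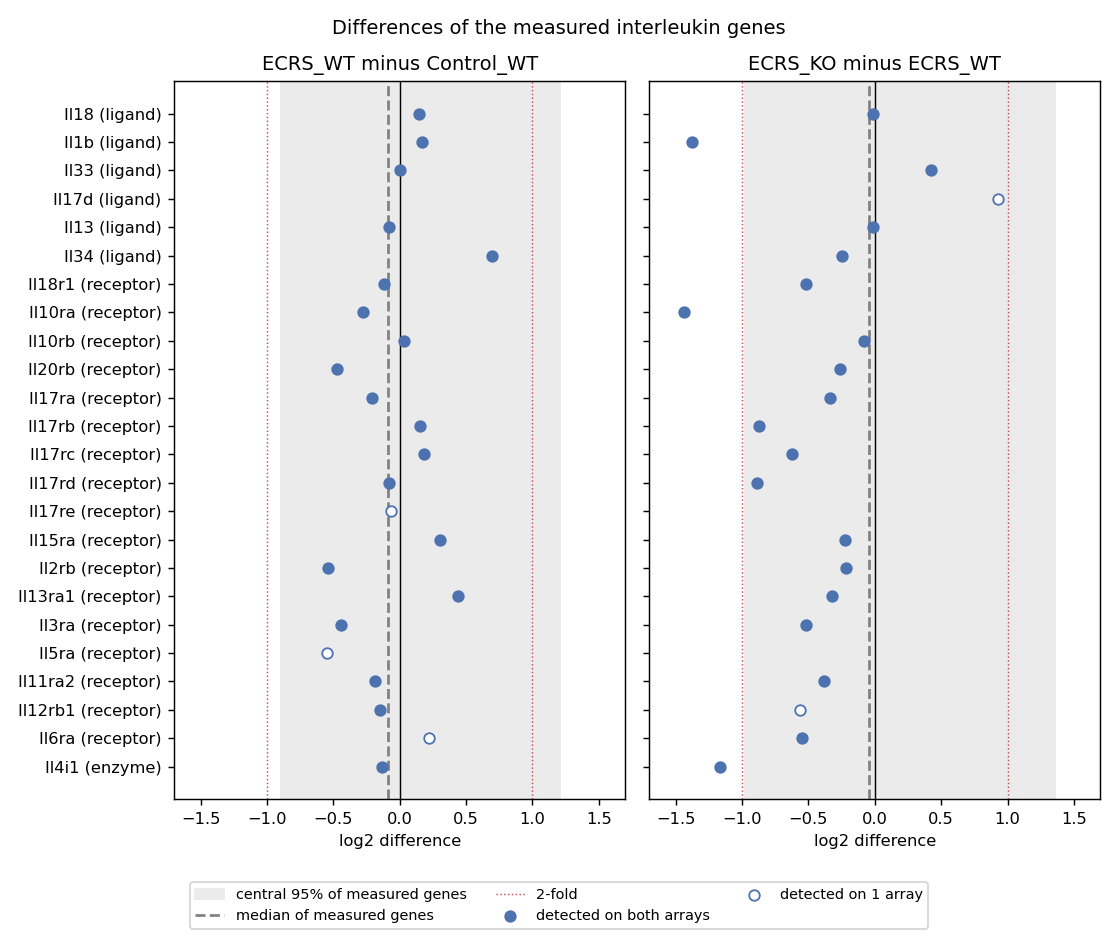
Log2 difference of each interleukin gene measured in ECRS_WT minus Control_WT (left) and ECRS_KO minus ECRS_WT (right), with open circles where 1 array did not detect the probe, dotted lines at 2-fold, a dashed line at the median of all measured genes and grey shading over their central 95%. The points on the left lie on both sides of 0, and 20 of 22 on the right lie below it, with Il10ra, Il1b and Il4i1 beyond the 2-fold line.

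The size of these differences depended on how the background was inferred. When limma inferred it from the detection p directly, Il1b was -0.94, Il10ra -0.18 and Il4i1 -0.15, so none was called. With the authors' normalized values Il1b stayed past 2-fold at -1.28, and Il10ra (-0.71) and Il4i1 (-0.58) did not. Il1b was thus past 2-fold in 9 of 10 other settings, Il10ra in 8 and Il4i1 in 6, and all 3 were lower in every one. These counts include the settings that changed only the detection filter or averaged probes. Those could not alter the values of these 3 genes, each with 1 probe detected on every array, so their passes were fixed in advance.

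**Figure D4:**
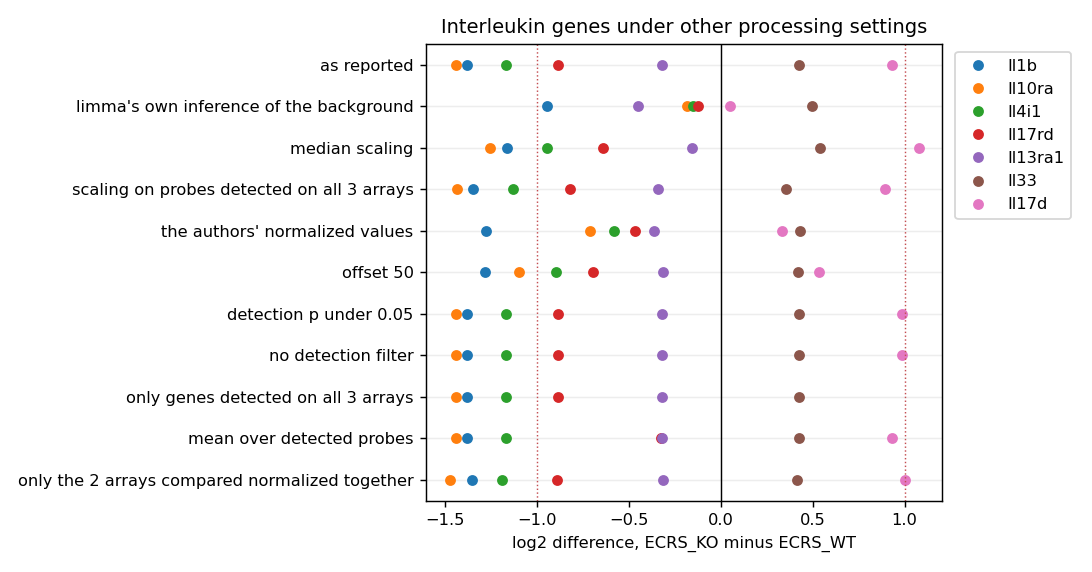
Log2 difference, ECRS_KO minus ECRS_WT, of 7 interleukin genes as reported and under 10 other processing settings, with dotted lines at 2-fold. Il1b stays left of -0.9 in every setting, Il33 stays between 0.36 and 0.54, and Il10ra, Il4i1, Il17rd and Il17d move close to 0 when limma infers the background itself.

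Markers of T cells and of macrophages and dendritic cells were lower beside the lower interleukin genes. All 4 measured T cell markers passed 2-fold downwards from ECRS_WT to ECRS_KO, with a median of -2.01 and summed signals over 8 genes, 4 of them not detected, of 948, 1611 and 494 on the 3 arrays. Of 7 measured markers of macrophages and dendritic cells 5 were lower, with a median of -1.40 and summed signals over 8 genes, 1 of them not detected, of 5059, 12584 and 6167. Between ECRS_WT and Control_WT 2 of these 7 had been higher, with a median of 0.95. In bulk tissue, fewer cells of a type and less RNA per cell cannot be told apart, and the part of these cells in the lower Il10ra, Il1b and Il4i1 was not tested.

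Olfactory sensory neuron markers were higher on the array labelled ECRS_KO for 8 of 9 genes, with a median of 1.85 and summed signals of 24633, 28129 and 72525, so the tissue sampled on that array differed in neuronal RNA as well. Of 4 measured mast cell and basophil markers 2 were lower there, with a median of -0.66. So were 1 of 2 B cell and plasma cell markers (median -0.95) and 1 of 5 epithelial markers (median -0.73). The medians of these lists thus lay below 0, as did those of the T cell and macrophage lists. None of the 8 neutrophil, 6 endothelial and 5 fibroblast markers reached 2-fold between the genotypes, with medians of 0.16, -0.35 and -0.31. Neutrophil markers were lower in ECRS_WT than in Control_WT for 4 of 8.

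The lists for type 2 disease were thinly measured. Of 6 eosinophil markers 4 had a probe and 1, Prg2, was detected, with signals of 1307, 886 and 1106. The label of eosinophilic disease was therefore not matched by a brighter eosinophil granule gene. Of the type 2 lymphocyte markers 3 were measured between disease and control and 2 between genotypes, and none reached 2-fold.

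**Figure D5:**
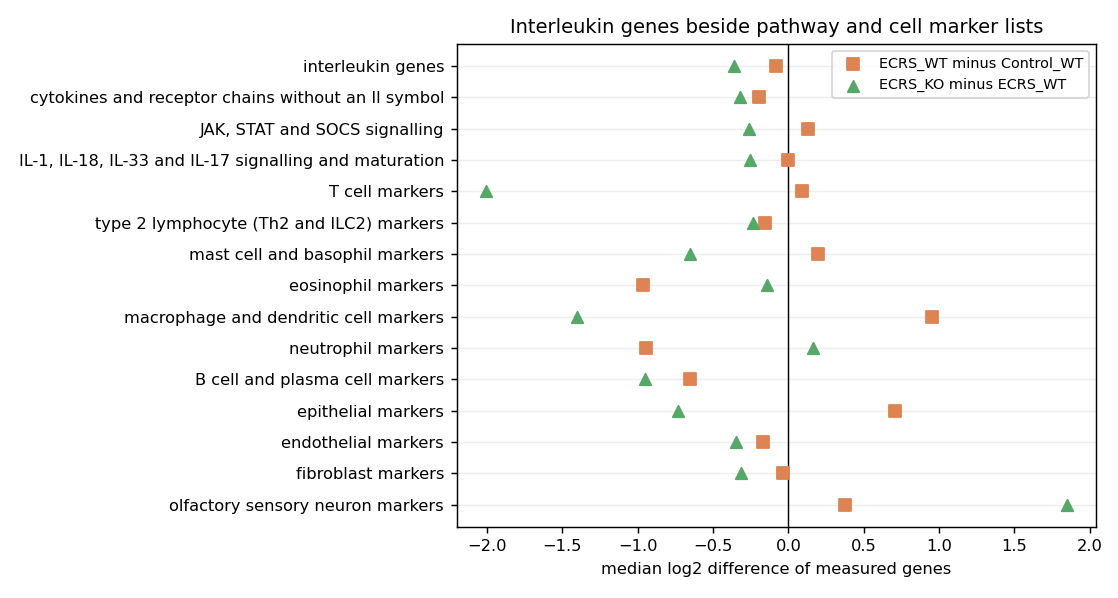
Median log2 difference of the measured interleukin genes and of each pathway or cell marker list, for ECRS_WT minus Control_WT (squares) and ECRS_KO minus ECRS_WT (triangles). The T cell and macrophage triangles lie at -2.01 and -1.40 and the olfactory neuron triangle at 1.85, with the interleukin genes at -0.36; the eosinophil symbols stand for 1 gene.

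Genes that work with the interleukins were read from fixed lists. Their folds, like those of the marker lists, were read only under the setting reported and not under the alternatives. Of cytokines and receptor chains with other symbols, Sigirr, an inhibitory receptor of the IL-1 family, had signals of 53.3, 263 and 292, a level 2.55-fold higher in ECRS_WT than in Control_WT. Csf2, which encodes GM-CSF, was 2.28-fold lower there, with its probe undetected on ECRS_WT. These were 1 higher and 1 lower of 8 measured, and between the genotypes 0 of 7 were called, with a median of -0.32.

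In JAK, STAT and SOCS signalling, which carries the signals of most type I and II cytokine receptors, 1 of 14 measured genes was called between disease and control. That was Stat6, the transcription factor downstream of IL-4 and IL-13, with signals of 15.4, 79.0 and 79.4. It was 2.24-fold higher in ECRS_WT, with its probe undetected on Control_WT. Its signals on these arrays lay in the range of those of Il34, whose difference fell from 0.70 to 0.060 when limma inferred the background. Between the genotypes 0 of 14 were called, with a median of -0.26. Of the genes of IL-1, IL-18, IL-33 and IL-17 signalling and maturation, 0 of 13 were called between disease and control.

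Between the genotypes 2 of 12 genes of that last list were lower. Casp1, the protease that matures IL-1β and IL-18, had signals of 960, 1277 and 783 and was 2.22-fold lower in ECRS_KO than in ECRS_WT. Gsdmd, whose product forms the pore through which IL-1β leaves the cell, had signals of 87.9, 136 and 87.7 and was 2.02-fold lower. Il1b, Casp1 and Gsdmd were thus lower together on the same array under the setting reported, and the median of the list was -0.26. Gsdmd passed 2-fold narrowly, and its signals were close to those of Il4i1, whose difference shrank to -0.15 when limma inferred the background.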

How the data were processed

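Sinonasal mucosa RNA was hybridised to 3 Illumina bead arrays, 1 per group. Per the file headers, the deposited table gives each probe an intensity that is not normalized. It also gives a detection p-value, as deposited. A further table has intensity values that the authors normalized. BeadStudio is named, without a version, per the submitters' processing notes; the genome build is not given in the sources used here.

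Signals were background-corrected by normexp (limma 3.58.1, R 4.3.3) with an offset of 16, and the 3 arrays were quantile normalized and put on the log2 scale. For the background, probes were put in 100 bins by detection p-value and its mean and SD were inferred from the bin medians, giving SDs of 9.23, 13.7 and 16.9. Of the probes 20571 had 1 gene symbol, 10 several and 14645 none; 20525 named probes matched RefSeq (GRCm38.p6), used for symbols and gene order. The probe with the highest mean level stood for a gene; 7 interleukin genes had several. An undetected side took the higher of its own level and the lowest of any detected probe (5.19, 5.06 and 5.00). Where the latter was taken the fold is a lower bound, and otherwise it is the plain difference of the levels. The procedure was run on simulated data in which the detection p followed the signal. The deposited detection p did not do so for all probes, so that run cannot judge the background inferred here. Tables were handled in Python 3.11.15 (pandas 2.3.3, numpy 2.4.6) and drawn with matplotlib 3.10.9.

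The members and the 15 lists with 155 entries were chosen with earlier results of these data known. Every detected interleukin gene was named, with Il4, Il5, Il9, Il25, Il6, Il10 and Il17a whatever their values; of each list at most the 3 largest members past 2-fold, or otherwise the 2 brightest, could be named. Alternatives were 9 planned and 1 added after seeing the data.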

Additional observations from a re-analysis of the deposited data

How the results depend on the processing

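In ECRS_WT minus Control_WT, 0 interleukin genes were called in either direction under each of the 10 alternatives. The median of -0.079 turned to 0.17 under median scaling, where the median of all measured genes was 0.10 and not -0.091. In ECRS_KO minus ECRS_WT, the 3 genes called lower became 0 when limma inferred the background itself, which also took the median from -0.36 to -0.059, and 1 (Il1b) with the authors' normalized values. Genes called higher became 1, Il17d, under median scaling, and 1, again Il17d, when only the 2 arrays compared were normalized together, an alternative chosen after seeing the data. Il7r was also called lower at a detection p under 0.05 and with no detection filter. The cause of these changes was not tested. The sign held under every alternative run for 14 of 23 genes in the first comparison and 17 of 22 in the second. Alternatives that changed only the detection filter could not alter the difference of a gene detected on both arrays. Averaging probes could not alter that of a gene with 1 probe. Such agreements were fixed in advance. Under each alternative with 22 measured genes, 17 or 18 of them lay below the median of all genes.

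Over all genes, 328 higher and 125 lower in ECRS_WT became 108 and 41 with limma's own inference, 511 and 43 under median scaling, 128 and 42 with the authors' values, 201 and 42 at an offset of 50, and 489 and 146 with no detection filter. In ECRS_KO, 421 and 210 became 143 and 81, 562 and 126, 212 and 95, 284 and 121, and 478 and 242; only genes detected on all 3 arrays gave 213 and 80, and 250 and 158. No paired analysis was possible because each group has 1 array. Signal over background limits the dim genes, such as Il5ra and Il12rb1, which were not detected on every array.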
